A study of Mus musculus with 6 samples.

Results

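Annexins and S100 proteins are the 2 families of small calcium-dependent proteins whose transcripts are described here in mouse liver with and without Vps15. The families were chosen with earlier results of these data known, and the genes within them were taken by symbol, as protein-coding genes named Anxa or S100a followed by a digit, or named S100b, S100g or S100pbp. This gave 28 of the 56305 genes in the table, 11 annexin genes and 17 genes of the S100 group, while 3 further genes with a matching symbol were not protein-coding and were left out. The liver RNA of 3 WT and 3 Vps15LKO male mice was sequenced, with 1 library per mouse, at 5 weeks of age and at zeitgeber time (ZT) 6, in animals fed ad libitum. Vps15LKO mice are AlbCre+;Vps15 f/f animals, in which Cre driven by the albumin promoter deletes Vps15, the regulatory subunit of class 3 PI3K, in liver. The labels call the other group WT, and its alleles beyond that are not given in the sources used here. A whole liver also holds bile duct, stellate, endothelial and immune cells, so fewer cells of a type and less RNA per cell cannot be told apart in these libraries.

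An annexin binds acidic phospholipids of a membrane when calcium rises, through a core of repeats that holds the calcium sites. S100 proteins are small EF-hand proteins that pair into dimers and, on binding calcium, dock onto other proteins. The families meet directly, since the S100a10 dimer holds a pair of Anxa2 molecules in a complex at the plasma membrane, and S100a11 binds the N-terminal tail of Anxa1. In liver, Anxa6 and S100a1 are known from hepatocytes, S100a6 and Anxa2 from bile duct and mesenchymal cells, and S100a8 and S100a9 from neutrophils and monocytes.

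The reads counted on genes ran from 16137093 to 18110223 per library. The authors divided them by 1 DESeq2 size factor per library, so that 1 read of a WT library was worth 1.25 to 1.35 normalized counts and 1 read of a Vps15LKO library 0.707 to 0.810. Pik3r4, which encodes Vps15, had 508, 573 and 460 normalized counts in WT and 341, 362 and 355 in Vps15LKO livers, a log2 fold change of −0.54 (SE of the fit 0.11, adjusted p = 0.00207, limma). When libraries were instead brought to equal read totals, called total-read scaling below, the log2 fold change of Pik3r4 was 0.19. That scaling moved the median of the tested genes up by 0.72 in log2 fold change, so some values under it are also given relative to that median. The transcripts that define hepatocytes were present in both groups, with albumin transcript at 2350420.0, 2169880.0 and 2030860.0 normalized counts in WT and 786995, 968935 and 620735 in Vps15LKO livers.

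Most annexin and S100 transcripts that could be tested were higher in Vps15LKO liver, S100a11 and Anxa2 having the largest log2 fold changes, and S100a1, S100a13 and Anxa11 were lower, though of these only S100a1 was also called lower under total-read scaling. S100a11 was 30.4-fold and Anxa2 20.9-fold higher by the ratio of group means, while S100a1 was 2.52-fold and S100a13 2.04-fold lower. By that ratio S100a8 at 26.1 and Anxa8 at 23.9, both with few reads in WT liver, lay above Anxa2. Of the 28 genes, 20 reached 20 normalized counts in 3 or more livers and were tested with limma on log2(normalized count + 1), a scale that understates changes of low genes. Calls required an adjusted p below 0.05 with a difference of 1.2-fold or more, which 66.5% of all 15430 tested genes met. There were 13 genes called higher, where 33.5% of all tested genes were higher, and 3 called lower, where 33.0% were lower. In 16 of the 20 the values of the WT and Vps15LKO livers did not overlap, against 73.2% of all tested genes. Anxa8, S100a4, S100a8 and S100a9 reached 20 normalized counts in no WT liver and so passed only through the Vps15LKO livers. They are among the 16 without overlap, but passing the filter in this way had already set that. Of the 15 genes that reached 20 normalized counts in all 6 livers, 8 were called higher and 3 lower, where 27.9% and 36.2% of the 13101 genes under that filter were. Under total-read scaling, 17 were higher and 1, S100a1, lower, where 66.7% and 11.1% of all tested genes were. A single gene tested by exact permutation cannot give a p below 0.1 in this design of 3 against 3.

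**Figure D1:**
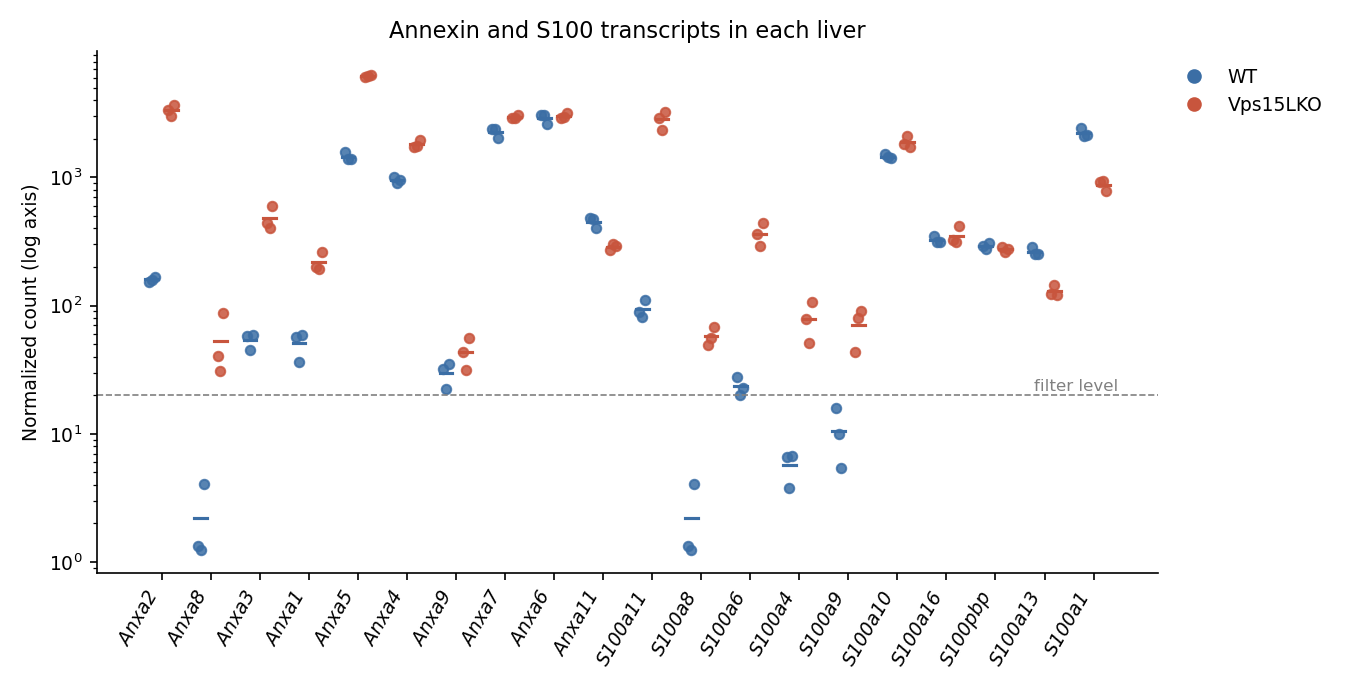
Normalized counts (log axis) of the 20 tested annexin and S100 genes, with 1 point per liver for 3 WT and 3 Vps15LKO mice and a short line at each group mean; the dashed line marks 20 normalized counts. Anxa2 runs from 154 to 167 in WT and from 3001 to 3686 in Vps15LKO livers, whereas the points of Anxa6, Anxa9, S100a16 and S100pbp overlap.

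Anxa2, on chromosome 9 of GRCm38 from 69453620 to 69491795, encodes the annexin that links membrane to the actin cortex and, on the cell surface, binds plasminogen and its activator. Its normalized counts were 154, 159 and 167 in WT livers and 3329, 3001 and 3686 in Vps15LKO livers. The lowest Vps15LKO liver was far above the highest WT liver. The log2 fold change of Anxa2 was 4.37 (SE 0.10, adjusted p = 8.39e-08, limma), and it stayed between 4.30 and 4.45 with each mouse left out in turn. It ranked 239 among the 15430 tested genes by log2 fold change.

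S100a10, its partner, lies on chromosome 3 from 93555080 to 93564643. It had 1513, 1431 and 1422 normalized counts in WT and 1822, 2096 and 1726 in Vps15LKO livers. The groups did not overlap, but the difference was small, with a log2 fold change of 0.37 (SE 0.10, adjusted p = 0.0101, limma). The partners thus differed in size of change, and this can be read within a library, where scaling plays no part. Per kb of exon, Anxa2 stood at 0.0330, 0.0360 and 0.0382 of the level of S100a10 in the WT livers. In the Vps15LKO livers it stood at 0.594, 0.465 and 0.694 of that level. The ratio was 16.2-fold higher in Vps15LKO liver, in 3 of 3 livers above each WT liver (two-sided exact permutation p = 0.1, the smallest that 3 against 3 can give, and 0.117 adjusted over the 7 ratios computed).

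S100a11 lies on chromosome 3 from 93520488 to 93526287, with 28792 bp between its end and the start of S100a10 on the same strand. Its protein binds annexins at membranes and is also found in the nucleus. It had 88.8, 81.2 and 111 normalized counts in WT and 2929, 2346 and 3258 in Vps15LKO livers. This was the largest log2 fold change of the 20 tested genes, 4.91 (SE 0.15, adjusted p = 2.33e-07, limma), and ranked 147 among all tested genes. S100a11 and S100a10 are neighbours, yet the log2 fold changes were 4.91 and 0.37.

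The sequences in front of the 2 well-expressed genes with the largest rises are shown because their difference between groups leads the results. Each is the 250 bases before the RefSeq start (GRCm38.p6), read 5′ to 3′ on the gene's strand. Capitals mark matches to the letters searched on both strands, TGANTCA of AP-1 and CACGTG of the E-box bound by Bmal1 and Clock. The first lies at chr9:69453433-69453682 and the second at chr3:93520246-93520495, both on the plus strand.
Anxa2: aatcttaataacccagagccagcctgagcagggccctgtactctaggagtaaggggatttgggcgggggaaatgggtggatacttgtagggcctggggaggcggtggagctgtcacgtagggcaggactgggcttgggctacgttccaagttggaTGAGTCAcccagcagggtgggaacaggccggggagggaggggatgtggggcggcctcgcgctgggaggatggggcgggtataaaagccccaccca
S100a11: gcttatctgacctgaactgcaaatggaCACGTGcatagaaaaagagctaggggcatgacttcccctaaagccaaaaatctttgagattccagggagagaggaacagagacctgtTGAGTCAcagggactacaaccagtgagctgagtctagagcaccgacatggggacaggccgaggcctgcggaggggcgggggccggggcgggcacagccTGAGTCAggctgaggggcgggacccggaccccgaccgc

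Anxa2 holds 1 and S100a11 2 AP-1 matches in these bases, and S100a11 also holds 1 E-box match. The set of RefSeq promoters used here had no entry for Anxa3, Anxa6, S100a2, S100a10 and S100a14. Promoters of 300 bases, 250 before to 50 after the start, were found in it for the other 23 of the 28 genes. Among them 3 held TGANTCA (Anxa2, S100a11 and Anxa10), where 7.81% of 32851 promoters did, and 2 held CACGTG (S100a11 and, after its start, S100a6), where 7.15% did. GGAATG of TEAD was in 2, TGACNNNGC of the antioxidant response element in 3 and TTNNGCAA of C/EBP in 4, where 14.7%, 12.4% and 10.8% of all promoters held them. The promoters of S100a1, S100a13 and Anxa11, the genes called lower, held none of the 5. A match of letters is a description of the sequence and no measured binding site.

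Anxa5 is the annexin used as a probe for phosphatidylserine on dying cells, and it was the most abundant annexin transcript per kb in Vps15LKO liver. It lies on chromosome 3 from 36448923 to 36475894. It had 1574, 1389 and 1392 normalized counts in WT and 6102, 6147 and 6349 in Vps15LKO livers. The 3 Vps15LKO livers lay close together, all above the WT livers, and the log2 fold change was 2.10 (SE 0.09, adjusted p = 9.71e-07, limma).

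Anxa6, an annexin with more core repeats than the others, which acts in endosome traffic and cholesterol handling, was the most abundant annexin per kb in WT liver. It had 3060.3, 3078 and 2633 normalized counts in WT and 2904, 2958 and 3176 in Vps15LKO livers. These ranges overlapped, with a log2 fold change of 0.05 (SE 0.10, adjusted p = 0.706, limma). Under total-read scaling, and with quantile normalization, Anxa6 was called higher, with log2 fold changes of 0.77 and 0.59. Relative to the median of all genes under total-read scaling it was 0.07. Within each library, the level of Anxa5 per kb was 0.848, 0.744 and 0.872 of that of Anxa6 in WT. In Vps15LKO livers it was 3.46, 3.43 and 3.30 times that of Anxa6, so the order of the pair was turned in 3 of 3 livers (two-sided exact permutation p = 0.1).

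Anxa1, which dampens inflammation through formyl peptide receptors, had 57.0, 36.2 and 59.3 normalized counts in WT and 200.1, 194 and 262 in Vps15LKO livers. Its log2 fold change was 2.10 (SE 0.22, adjusted p = 5.57e-05, limma). Anxa3 had 58.3, 44.97 and 59.3 normalized counts in WT and 444, 403 and 593 in Vps15LKO livers, a log2 fold change of 3.11 (SE 0.18, adjusted p = 2.94e-06, limma). Both transcripts were scarce in WT liver and had no overlap between groups.

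Anxa4, an annexin of secretory and biliary epithelia, had 999.8, 912 and 954 normalized counts in WT and 1739.6, 1752 and 1956 in Vps15LKO livers. This was a log2 fold change of 0.92 (SE 0.09, adjusted p = 3.79e-05, limma). Anxa7, an annexin linked to membrane fusion, differed less, with 2380.1, 2405 and 2014 normalized counts in WT and 2913, 2912 and 3048 in Vps15LKO livers. Its log2 fold change of 0.39 (SE 0.10, adjusted p = 0.0082, limma) passed the test, and the groups did not overlap.

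Anxa11, which tethers RNA granules to lysosomes, was the annexin called lower. It had 479, 469.7 and 402 normalized counts in WT and 273, 299.8 and 291 in Vps15LKO livers, a log2 fold change of −0.64 (SE 0.11, adjusted p = 7.53e-04, limma). Under total-read scaling the sign of Anxa11 turned, with a log2 fold change of 0.09 that was not called, which is −0.62 relative to the median of all genes. It shares 113 bp of exon with the antisense gene Anxa11os, and how strand was handled in the counting is not given in the sources used here.

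Anxa8 is an annexin of epithelia that was close to absent in WT liver. It had 1, 1 and 3 reads in the WT libraries and 53, 38 and 123 in the Vps15LKO libraries. The ratio of the group totals, corrected for size factors, was 24.8 (95% exact binomial interval from 10.5 to 77.3, for counting error only). It was 42.04 without WT replicate 3 and 16.4 without Vps15LKO replicate 3. Anxa9, which lacks working calcium sites, was not called, with 31.8, 22.5 and 35.0 normalized counts in WT and 43.5, 31.6 and 55.9 in Vps15LKO livers (log2 fold change 0.52, SE 0.28, adjusted p = 0.127, limma). Its log2 fold change ran from −0.20 with quantile normalization to 1.23 under total-read scaling, and only the latter was called. Anxa10 had 0 reads in all 6 libraries, and a count of 0 allows up to 3 reads per library.

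**Figure D2:**
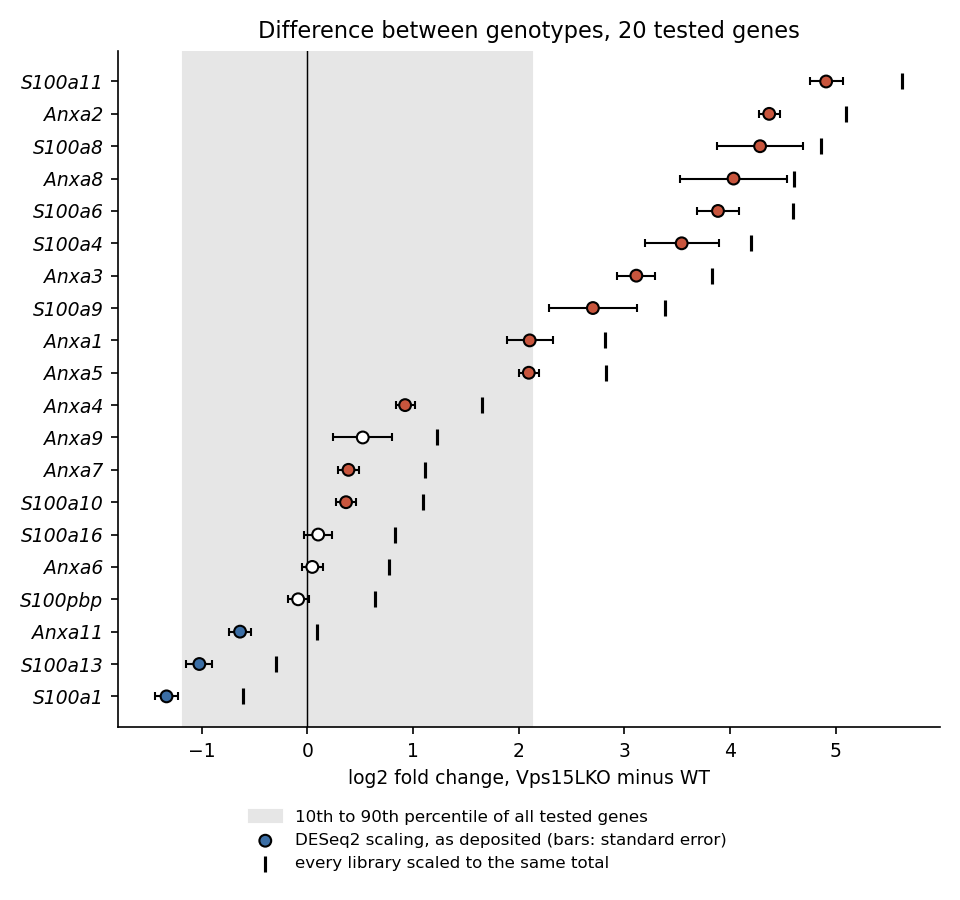
Log2 fold change of the 20 tested genes (Vps15LKO minus WT, circles, with the standard error from limma as bars) beside the value under total-read scaling (vertical ticks). Red circles were called higher, blue circles lower and white circles not called, and the grey band is the 10th to 90th percentile of all tested genes, from −1.18 to 2.13. Under the other scaling Anxa11 and S100pbp change sign.

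The larger S100a cluster lies on chromosome 3 from 90511034 to 90695721 and holds 12 of the S100a genes. Among its genes S100a1 and S100a13 were called lower, S100a13 not under total-read scaling, S100a16 was not called, and S100a6 was called higher. S100a4, S100a8 and S100a9 were also called higher but passed the filter only through the Vps15LKO livers, and S100a6 fell just short of 20 normalized counts in 1 WT liver. With 20 required in every liver, no gene of the cluster was called higher, and a relation to position was not tested. S100a1 and S100a13 stand head to head, on the minus and the plus strand, with 42 bp between the 2 gene models. These 42 bases, at chr3:90514393-90514434 on the plus strand, are shown because the promoters of both genes meet there. None of the letters searched is in them.
S100a1-S100a13: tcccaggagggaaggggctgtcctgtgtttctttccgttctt

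S100a1, which regulates calcium release and contraction in heart muscle, was the most abundant transcript of all 28 per kb in WT liver. It had 2432, 2086 and 2126 normalized counts in WT and 917, 929 and 788 in Vps15LKO livers, a log2 fold change of −1.33 (SE 0.11, adjusted p = 1.28e-05, limma). It was called lower under total-read scaling too, with a log2 fold change of −0.61. S100a13, which takes part in the release of proteins that lack a signal peptide, had 285, 255 and 251 normalized counts in WT and 122, 144 and 122 in Vps15LKO livers. Its log2 fold change was −1.02 (SE 0.12, adjusted p = 1.25e-04, limma), and −0.30 and no longer called under total-read scaling. By normalized counts, both genes of the pair lay lower in every Vps15LKO liver than in any WT liver. The ratio of S100a1 to S100a13 per kb was 8.79, 8.43 and 8.74 in WT and 7.73, 6.64 and 6.67 in Vps15LKO livers. This ratio in Vps15LKO livers was 0.809-fold that in WT, lower in 3 of 3 livers (two-sided exact permutation p = 0.1).

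The coding genes next to S100a1 outside the cluster, chosen after the data were seen, were not called in limma, the log2 fold change being −0.20 for Chtop, 0.08 for Snapin and 0.20 for Ilf2. Under total-read scaling these values were 0.52, 0.80 and 0.92, so the sign of Chtop turned. S100a16, within the cluster, had 350.1, 314 and 311 normalized counts in WT and 326, 311 and 417 in Vps15LKO livers. The groups overlapped, and the log2 fold change was 0.10 (SE 0.13, adjusted p = 0.513, limma) but 0.83 and called under total-read scaling.

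S100a6, found in proliferating and ductal cells, had 27.8, 19.99 and 22.9 normalized counts in WT and 360.4, 293 and 441 in Vps15LKO livers. Its log2 fold change was 3.89 (SE 0.20, adjusted p = 1.56e-06, limma). Within each library, S100a6 per kb was 0.00581, 0.00486 and 0.00547 of the level of S100a1 in WT and 0.199, 0.1598 and 0.284 in Vps15LKO livers, a 38.8-fold higher ratio. S100a11 stood at 0.0496, 0.0529 and 0.0706 of the level of S100a1 per kb in WT and at 4.34, 3.43 and 5.62 times that level in Vps15LKO livers. The order of S100a11 and S100a1 was therefore turned in 3 of 3 livers, and neither ratio depends on the scaling of the libraries (two-sided exact permutation p = 0.1 for each). By log2 fold change S100a11 had the largest rise and S100a1 the largest fall of the tested members. Both p-values thus follow from the choice of genes and add no support.

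S100a4, a protein of motile mesenchymal and myeloid cells that binds non-muscle myosin, had 6.63, 3.75 and 6.74 normalized counts in WT and 78.7, 51.1 and 106 in Vps15LKO livers. Its fitted log2 fold change was 3.54, and no p is given because the gene passed the filter only through the Vps15LKO livers. The overlapping coding gene Gm42674, the one non-S100 coding gene inside the cluster, shares 302 bp with it, 51.7% of the exon length of S100a4. Gm42674 had 5, 3, 5, 101, 61 and 151 reads where S100a4 had 5, 3, 5, 103, 63 and 150, in WT and then Vps15LKO order. The value of Gm42674 is therefore not separate from that of S100a4.

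**Figure D3:**
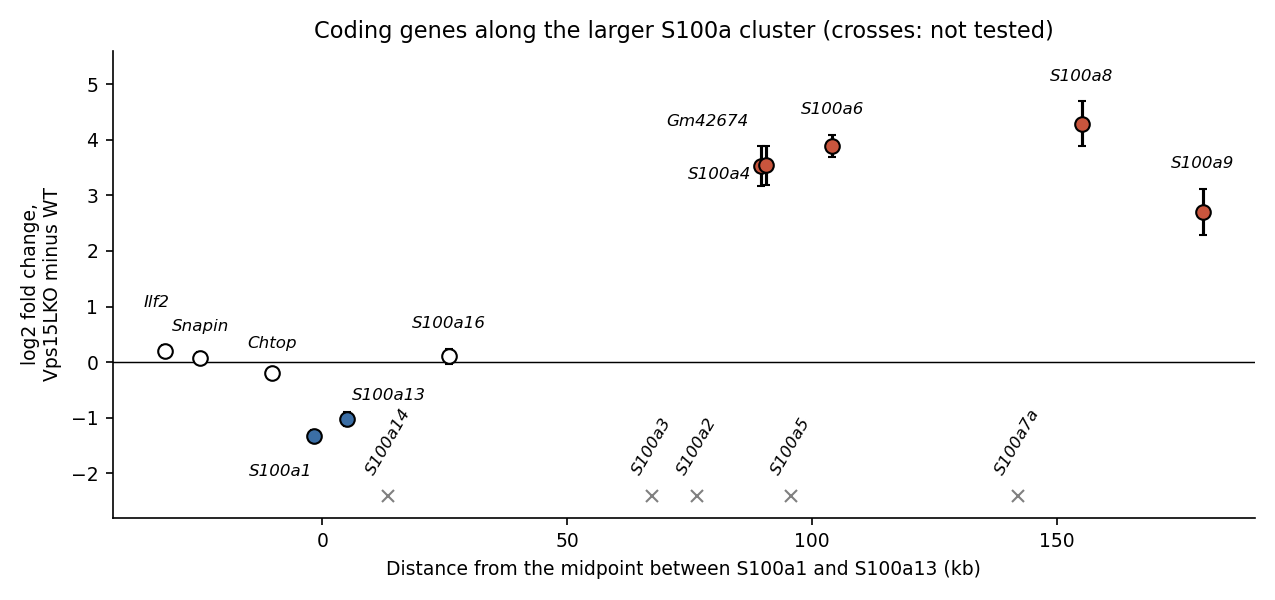
Log2 fold change with its standard error for the coding genes in and beside the larger S100a cluster, against distance from the point midway between S100a1 and S100a13. Red was called higher, blue lower and white not called in limma, and crosses mark genes with too few reads to test. S100a1 and S100a13 lie below 0, and S100a6 lies at 3.89. S100a4, S100a8 and S100a9, between 2.70 and 4.29, passed the filter only through the Vps15LKO livers.

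S100a8 and S100a9 form calprotectin, the abundant metal-binding dimer of neutrophils and monocytes. S100a8 had 1, 1 and 3 reads in WT and 64, 69 and 96 reads in Vps15LKO libraries. The ratio of its group totals was 26.6 (95% exact binomial interval from 11.2 to 82.6, for counting error only). It was 44.98 without WT replicate 3, which held 3 of the 5 WT reads. S100a9 had 15.9, 9.99 and 5.39 normalized counts in WT and 43.5, 79.4 and 90.5 in Vps15LKO livers, a fitted log2 fold change of 2.70, given without a p for the same reason as S100a4. Every Vps15LKO liver was above every WT liver for both genes, which passing the filter had set, and both remained scarce beside S100a11.

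Transcripts that mark neutrophils were counted too. Of 10 neutrophil markers 4 were tested and all 4 called higher, where 33.5% of all tested genes were. Mpo, Ngp and Ltf among these reached 20 normalized counts in no WT liver and so passed only through the Vps15LKO livers. With 20 required in every liver 1, Csf3r, was tested and called higher, where 27.9% of the genes under that filter were. In normalized counts the markers summed to 67.5 to 79.5 in WT livers and 527 to 644 in Vps15LKO livers. Csf3r made up most of the WT sum, and Ngp, Mpo and Ly6g had 0 reads in every WT library. Ngp had 102, 154 and 180.4 normalized counts and Ly6g 2.29, 4.05 and 4.95 in the Vps15LKO livers. How far neutrophils account for S100a8 and S100a9 was not tested.

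The other S100 genes were near or at 0. S100b, a marker of glia, had 2, 1 and 0 reads in WT and 13, 5 and 27 in Vps15LKO libraries, a ratio of totals of 8.70 (95% exact binomial interval from 2.79 to 43.8) that was 17.5 without WT replicate 1 and 5.42 without Vps15LKO replicate 3. S100a14 had 1, 0 and 0 reads in WT and 1, 4 and 7 in Vps15LKO libraries, a ratio of totals of 6.96 (95% exact binomial interval from 1.03 to 298). Its normalized counts overlapped between the groups, and WT replicate 1 held the 1 WT read. With another single library left out the ratio ran from 4.51 to 9.54, and its interval included 1 without WT replicate 2 or 3 or Vps15LKO replicate 2 or 3. S100g, which carries calcium across the intestinal cell, had 0, 0 and 6 reads in WT and 0, 9 and 15 in Vps15LKO libraries, and its groups overlapped. S100a3 had 0 reads in WT and 1, 0 and 2 in Vps15LKO libraries, which is at the floor of 3 reads. S100a2, S100a5 and S100a7a had 0 reads in all 6 libraries. S100pbp, which encodes a binding protein of an S100 protein and no S100 protein itself, was not called, with 293, 279 and 306 normalized counts in WT and 286, 263 and 277 in Vps15LKO livers (log2 fold change −0.09, SE 0.10, adjusted p = 0.454, limma). Its sign turned under upper-quartile scaling (0.04) and total-read scaling (0.64, called).

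Set side by side per kb of exon, the levels changed order. Exon length here counts every annotated exon of a gene, whichever transcript is expressed, so the order of genes within a group depends on that choice. In WT liver the order began with S100a1 at 3191 ± 273 normalized counts per kb, S100a10 at 1201 ± 41.2, Anxa6 at 998 ± 86.0 and Anxa5 at 817 ± 59.5 (SD, n = 3 mice). The ranges of these 4 did not overlap, whereas those of Anxa7 and S100a13, next in the order, overlapped each other. In Vps15LKO liver it began with S100a11 at 5566 ± 904, Anxa5 at 3489 ± 74.2, S100a10 at 1552 ± 158, S100a1 at 1265 ± 113, Anxa6 at 1028 ± 49.2 and Anxa2 at 895 ± 91.9 (SD, n = 3 mice), with no overlap between neighbours down to Anxa4. S100a11 had been the ninth and Anxa2 the eleventh in WT liver.

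The make-up of each family shifted within the libraries. Anxa6 made up 37.1% to 40.1% of the summed annexin level per kb in WT and 15.3% to 15.7% in Vps15LKO livers. Anxa5 went from between 29.8% and 32.4% in WT to between 51.2% and 53.9%, and Anxa2 from between 1.498% and 1.85% to between 12.5% and 14.2%. Among S100 genes, S100a1 made up 60.6% to 62.5% of the sum in WT and 11.2% to 15.6% in Vps15LKO livers. S100a11 made up 3.10% to 4.28% in WT and 53.3% to 62.7% in Vps15LKO livers. A share within a library does not depend on the scaling between libraries, but it depends on the exon lengths used.

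**Figure D4:**
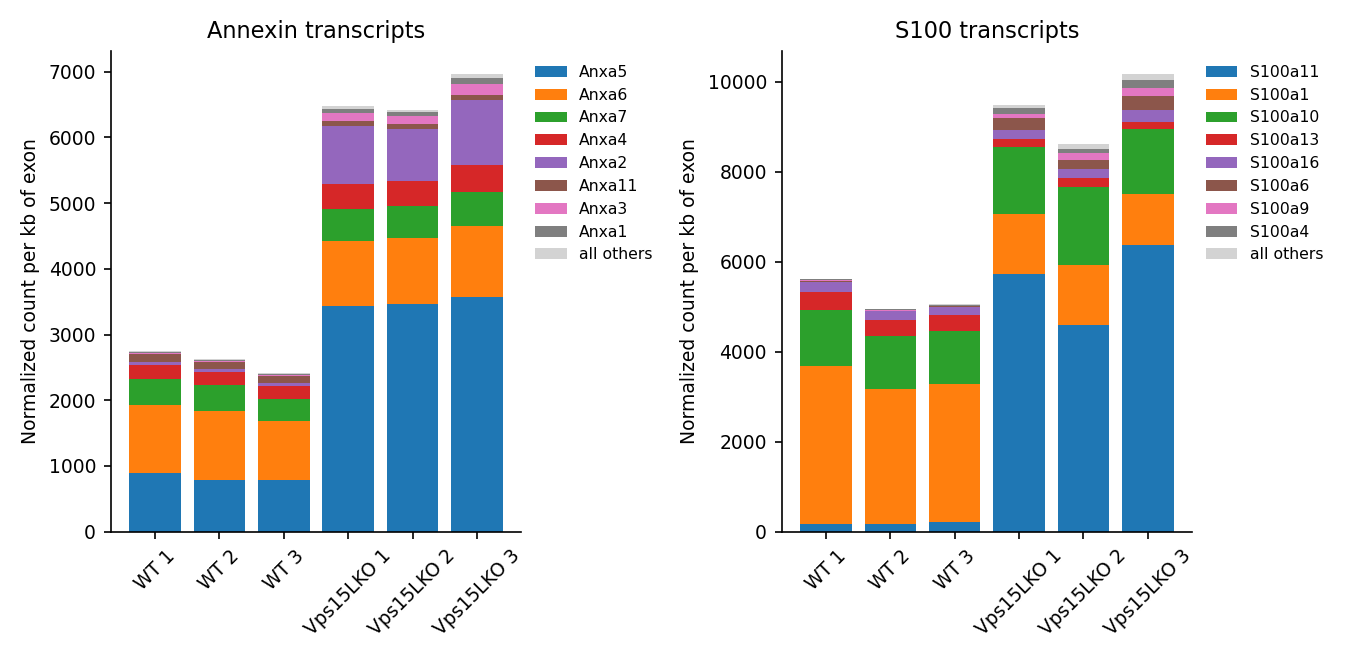
Summed level of annexin transcripts (left) and S100 transcripts (right) in each library, in normalized counts per kb of exon, split by gene. The annexin sum is 2421 to 2751 in WT and 6418 to 6972 in Vps15LKO livers, and the S100 sum 4939 to 5608 and 8607 to 10177.

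**Figure D5:**
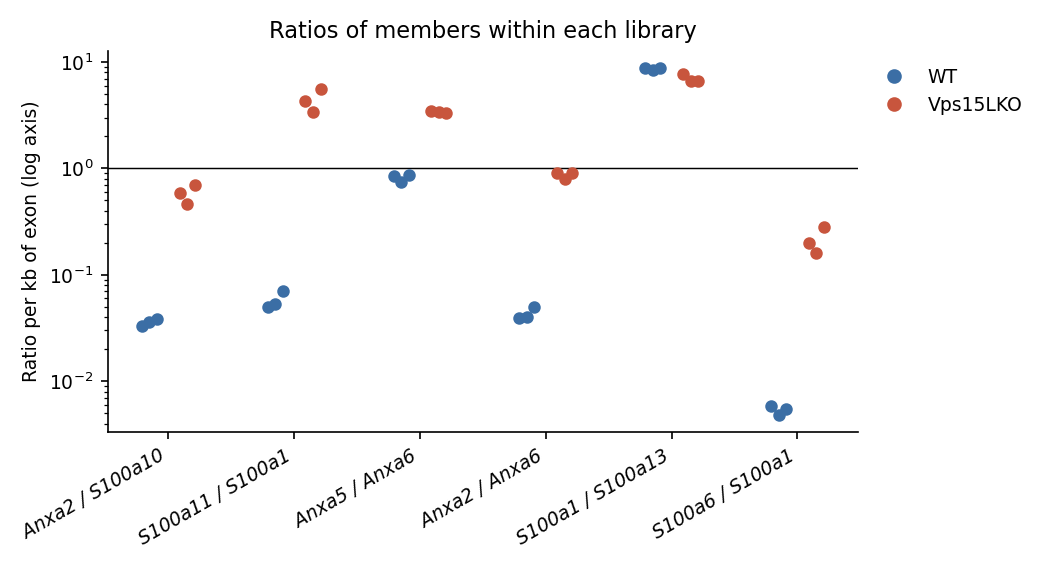
Ratio of 2 members within each library, per kb of exon (log axis), with 1 point per liver. The pair S100a8 to S100a9, whose points overlap, is not drawn. The 3 Vps15LKO points lie apart from the 3 WT points in each pair, on the other side of 1 for S100a11 to S100a1 and for Anxa5 to Anxa6, and the shift is smallest for S100a1 to S100a13.

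Proteins that annexins and S100 proteins bind were taken from a list of 12 genes. The binding is mostly inside the cell, though Anxa2 binds Plat on the cell surface. All 12 were tested, and 8 were called higher and 3 lower, where 33.5% and 33.0% of all tested genes were. With 20 normalized counts required in every liver 7 were higher and 3 lower, where 27.9% and 36.2% of all genes under that filter were. The median log2 fold change of this list was 1.26, where that of all tested genes was −0.02. Plat, the plasminogen activator that the Anxa2 complex binds, had 2.65, 13.7 and 14.8 normalized counts in WT and 593, 409 and 772 in Vps15LKO livers. It reached 20 normalized counts in no WT liver and passed the filter only through the Vps15LKO livers, so no p is given. Without Plat 7 of 11 were called higher and 3 lower, and the median of the list was 0.98. Ahnak, the giant scaffold bound by the S100a10 complex, was higher by a log2 fold change of 2.01, and Myh9, the myosin bound by S100a4, by 1.55. Myof and Dysf, the ferlins of membrane repair, were higher by 3.65 and 0.98. Ezr and Iqgap1, of the membrane cortex, were higher by 2.10 and 2.62, and Sri, which binds Anxa7, by 0.57. Cacybp, a binder of S100a6, Pdcd6, a calcium sensor that binds Anxa11, and Dlc1 were called lower, with log2 fold changes of −0.33, −0.29 and −0.60. All 3 turned under total-read scaling, to 0.40, 0.44 and 0.13. Without WT replicate 1, or without Vps15LKO replicate 1, 1 of the list was called lower. Hltf was not called, with a log2 fold change of 0.09.

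Of 7 receptors and co-receptors for annexins and S100 proteins outside the cell, 6 were tested and 3 called higher, where 33.5% of all tested genes were, with a median log2 fold change of 0.88. Ager, the receptor for advanced glycation end products that binds several S100 proteins, had 3.98, 0 and 4.04 normalized counts in WT and 25.2, 22.7 and 38.9 in Vps15LKO livers. It too passed the filter only through the Vps15LKO livers, and no p is given. Without Ager, 2 of 5 receptors were called higher and their median log2 fold change was 0.55. Tlr4, which responds to S100a8 and S100a9, was higher by a log2 fold change of 1.84 and Cd36 by 1.201. Ly96, Bsg and Fpr1 were not called at log2 fold changes of 0.55, −0.0005 and 0.11, and Fpr2 was not tested.

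Other calcium-binding families were counted the same way. Of 28 other EF-hand genes 23 were tested, 13 called higher and 4 lower, where 33.5% and 33.0% of all tested genes were, with a median log2 fold change of 0.57. Without Efhd1, which passed the filter only through the Vps15LKO livers, 12 of 22 were higher and 4 lower. Sri and Pdcd6 are in this list and among the partners above. Among those whose mean reached 50 normalized counts the largest rise was that of Rcn3, a reticulum protein, at 1.64, and the largest fall that of Chp1 at −0.79. Of the 9 copines, which also bind phospholipid with calcium, 4 were tested, and Cpne8 was called higher (log2 fold change 2.30, SE 0.15, adjusted p = 5.15e-06, limma). Under total-read scaling, 20 of the EF-hand genes and 4 copines were called higher and 0 of either lower, where 66.7% and 11.1% of all tested genes were.

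Markers of several other cell types moved with the annexin and S100 genes. For the counts that follow, 33.5% of all tested genes were called higher and 33.0% lower, or 27.9% and 36.2% with 20 normalized counts required in every liver. Of 10 markers of cholangiocytes and progenitors, 9 were tested and 9 called higher, or 5 with 20 normalized counts required in every liver, and all 10 summed to 1409 to 1578 normalized counts in WT livers and 12979 to 24656 in Vps15LKO livers. Cftr, a bile duct channel that passed the filter only through the Vps15LKO livers, averaged 3.08 in WT livers and 192 in Vps15LKO livers. All 11 markers of recruited monocytes and macrophages were called higher, but Trem2, Gpnmb and Chil3 passed the filter only through the Vps15LKO livers and 5 were called with 20 required in every liver, with a sum of 1494 to 2025 in WT and 14700.0 to 18733 in Vps15LKO livers. All 10 markers of stellate cells and fibroblasts were called higher, with a sum of 7095 to 7597 in WT and 30561 to 36135 in Vps15LKO livers. Col1a1, of collagen, was higher by a log2 fold change of 4.39, and Gpnmb, a gene of macrophages, had a fitted one of 8.88 that ran from 8.21 to 9.47 with single libraries left out. Of 10 Kupffer cell markers 7 were called higher, among them C1qb by a log2 fold change of 2.09, with sums of 8193 to 9044 and 22639 to 27378. Timd4, a marker of resident Kupffer cells, lay the other way, with 166, 191 and 164 normalized counts in WT and 163, 117.5 and 74.3 in Vps15LKO livers (log2 fold change −0.62, SE 0.26, adjusted p = 0.0585, limma). It was not called, and its log2 fold change was 0.10 under total-read scaling. Of 8 lymphocyte markers 6 were tested and 5 called higher, among them Ighm at 0.98, but Nkg7, Cd2, Cd3e and Cd3d passed the filter only through the Vps15LKO livers and 1 was called with 20 required in every liver, with sums of 225 to 389.7 and 512 to 599.8. Of 10 endothelial markers 4 were called higher and 6 lower, but 1 lower under total-read scaling and 3 with WT replicate 1 or 2, or Vps15LKO replicate 1 or 3, left out, with sums of 10417 to 11638 and 8467.5 to 10338. The widest differences among them were those of Lyve1 at 0.95 and Ehd3 at −1.19. Of 5 mesothelial markers 4 were tested and 0 called in limma, with 0 at an unadjusted p under 0.05 and 0 called by edgeR, DESeq2 or voom, and sums of 204 to 235 and 199 to 264. Of 5 erythroid markers 4 were tested with 1 higher (Slc4a1, which passed only through the Vps15LKO livers) and 1 lower (Alas2, log2 fold change −3.06), and sums of 6508 to 8677 and 5292 to 7385. Of 12 hepatocyte markers 11 were found and tested and 10 called lower, Cyp2e1 most with a log2 fold change of −3.47, with sums of 2988300.0 to 3409300.0 in WT and 844700.0 to 1287800.0 in Vps15LKO livers. The part of these cells in the annexin and S100 values was not tested.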

How the data were processed

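The RNA of 6 mouse livers (3 WT, 3 Vps15LKO) was sequenced by the authors after poly(A) selection with a kit that marks strand. After read filtering (SOAPnuke) and alignment to GRCm38 (HISAT2), the authors obtained gene counts with featureCounts and normalized them with DESeq2. Tool versions, and how strand and multi-mapped reads were handled, are not given in the sources used here. The deposited values are this normalized signal, a read count divided by a size factor, for 56305 genes. In each library 100% of values above 0 were whole multiples (within 0.001) of 1 step, which gave back whole reads.

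Values of log2(normalized count + 1) were compared by limma 3.58.1 (trend) in R 4.3.3 for the 15430 genes that reached 20 normalized counts in 3 or more livers, all of them entering the Benjamini-Hochberg adjustment. Calls required an adjusted p below 0.05 with a difference of 1.2-fold or more. On the recovered reads edgeR 4.0.16 called 10205 genes, where limma called 10262. Coordinates and exon lengths came from GENCODE M21 (GRCm38), which matched 55227 genes, and promoters from RefSeq (GRCm38.p6). Intervals and floors of read counts cover counting error only. Protein sequences, named in the design, were not analysed here. The members and gene lists were chosen with earlier results of these data known. The text names all 28 members, all receptors and partners and, per list, the called gene with the largest rise and fall whose mean reached 50. Albumin, Csf3r, Mpo, Ltf, Ly6g, Trem2, Chil3, Timd4, Clec4f, Folr2, Efhd1, Nkg7, Cd2, Cd3e, Cd3d, Slc4a1, Gm42674, Chtop, Snapin and Ilf2 were chosen after their values were seen. No source says that replicate numbers mark a litter, so p-values measure the spread between these mice. Alternatives were pseudocounts of 0.1 and 10, other filters, 4 scalings, limma without a trend, edgeR, DESeq2 1.42.0, voom, stricter thresholds, each mouse left out and replicate number as a block. Read ratios without each library, and lists without genes at 20 in no WT liver, were added after seeing the data. The pairs of the 7 within-library ratios were not named in the design.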

Additional observations from a re-analysis of the deposited data

How the results depend on the processing

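Of 436 alternative values for the members and Pik3r4, 418 kept their direction and side of the threshold, 7 were no longer called, 4 became called and 7 changed sign. The log2 fold change of S100pbp changed sign under upper-quartile (0.0352) and total-read scaling (0.64), as did that of Anxa11 (0.087) and Pik3r4 (0.19) under total-read scaling. The sign also changed with quantile normalization for Anxa9 (−0.20), and for Anxa6 without WT replicate 3 and S100a16 without Vps15LKO replicate 3, which ranged from −0.028 to 0.085 and from −0.027 to 0.183 with each mouse left out. Total-read scaling adds 0.72 to the median, which its construction shows; other causes were not tested. Depth limits the 8 untested members, and Anxa8 and S100a8, to counting intervals.

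Under total-read scaling 10299 genes were higher and 1712 lower, and 1 member was lower. It called 6 receptors, 20 EF-hand genes, 4 copines, 2 mesothelial and 3 erythroid markers higher. It called 1 endothelial marker and 0 partners and 0 EF-hand genes lower. A fold of at least 2 left 3228 genes higher and 1957 lower, with 8 EF-hand genes and 0 endothelial markers higher, and 1 endothelial marker, 0 partners and 0 EF-hand genes lower. With 20 normalized counts required in every liver, 8 members were higher, as were 5 cholangiocyte, 5 recruited macrophage, 1 neutrophil, 1 lymphocyte and 0 erythroid markers and 0 neighbours in the S100a clusters. Without a filter, 9 neutrophil, 1 mesothelial and 2 erythroid markers were higher. With quantile normalization 2 lymphocyte and 3 erythroid markers were higher, and 1 Kupffer, 3 endothelial, 1 lymphocyte and 2 mesothelial markers lower. Endothelial markers called lower were 3 under upper-quartile scaling, without a trend, in edgeR and at an adjusted p under 0.01, and 1 partner was lower under upper-quartile scaling and at that p. With each mouse left out, 0 to 1 Kupffer, 3 to 6 endothelial and 0 to 1 mesothelial markers and 1 to 3 partners were lower, and 0 to 1 mesothelial markers higher. Same-numbered WT and Vps15LKO mice had correlations of deviations of −0.01, −0.01 and 0.05. The largest of all pairs was 0.09, for WT replicate 2 with Vps15LKO replicate 1. The study bred for litters that held both genotypes, and these values cannot show whether any of the mice shared a litter. With replicate number as a block, 5065 genes were higher and 4983 lower, 13 members were higher and 3 lower, and 1 Kupffer marker was lower.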

Other observations

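Several members share exon sequence with another gene in GENCODE M21. How reads in shared exons were counted is not given, so the values of these genes may not be separate from those of the members. Anxa11os, antisense to Anxa11, shares 113 bp with it and had a log2 fold change of −0.62 (adjusted p = 0.00622, limma), and 0.10 under total-read scaling. Gm44036, antisense to Anxa4, shares 75 bp and had a log2 fold change of 0.88 (adjusted p = 4.63e-04, limma), and 1.60 under total-read scaling. Anxa9 shares 94 bp with 6330562C20Rik on the same strand, at 0.90 (adjusted p = 0.0185, limma) and 1.60 under total-read scaling. It shares 71 bp with Mindy1 on the other strand, at −0.60 (adjusted p = 0.00122, limma) and 0.12 under total-read scaling. Gm16144, opposite Anxa2, shares 98 bp and had 0, 1 and 0 reads in WT and 2, 2 and 5 in Vps15LKO libraries. The ratio of S100a8 to S100a9 per kb was 0.0627, 0.0940 and 0.564 in WT and 0.844, 0.530 and 0.564 in Vps15LKO livers, overlapping between groups (two-sided exact permutation p = 0.3).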
